A study of Homo sapiens with 2 samples.

Results

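A stretch of 28S rRNA of 500 nt, the positions after 1850 and before 2351, which by its numbering covers the GTPase-associated centre and expansion segment ES15L at the end of domain II, was examined for RNA ends that carry a cyclic phosphate. Its members are all deposited 28S positions inside these limits, chosen by number alone. They came to 328 of the 5047 listed positions of 18S and 28S rRNA, and the other 172 of the 500 positions in the stretch are not listed. Listing took 5 reads or more in either library. The place of the GTPase-associated centre and of ES15L was taken from the position numbers. It could not be checked against the data, because the table holds positions and reads but no nucleotides, and the sources used here do not give the reference behind the numbering.

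The poly I:C library came from A549 cells transfected with poly I:C at 1 µg/mL for 1 h with Lipofectamine 2000. Poly I:C is a synthetic double-stranded RNA that stands in for viral RNA. The mock library came from A549 cells that received Lipofectamine alone. A549 is an established line of human lung carcinoma epithelium, grown as an adherent culture. The table gives rRNA reads alone, so no marker gene of the cells could be examined. Ends were captured with RtcB, a ligase that joins an adapter to RNA that ends in a cyclic phosphate.

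The GTPase-associated centre is a compact, highly conserved fold of the large subunit rRNA at the base of the ribosomal stalk. It binds protein uL11 and the stalk proteins, and it contacts the translation factors that hydrolyse GTP on the ribosome. ES15L is an insertion that bacterial rRNA lacks and that is long in mammals. Cyclic phosphate ends arise when RNA is cut by RNase L, the nuclease that 2-5A switches on once double-stranded RNA is sensed, by other RNases that use the same chemistry, or by hydrolysis without an enzyme.

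Each condition had 1 library, so no spread between replicates exists, no test between conditions was possible, and no p-value is given. All listed reads came to 3764202 in the poly I:C library and 3079346 in the mock library. Reads were divided by these sums, and a ratio is the scaled poly I:C value over the scaled mock value. Intervals are 95% exact intervals for reads counted as independent. They cover counting error only. PCR copies are not separate molecules, so where reads include such copies the intervals are too narrow.

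The stretch gave a smaller share of the ends after poly I:C than after mock transfection. It held 288855 poly I:C reads and 367992 mock reads. This was 7.67% (7.65 to 7.70) of all listed reads after poly I:C, against 11.95% (11.91 to 11.99) after mock transfection. The ratio was 0.642 (0.639 to 0.645), and the unscaled ratio of reads was 0.785. Within 28S rRNA alone, the stretch accounted for 11.7% of reads after poly I:C, against 15.6% after mock transfection. When the libraries were scaled by the median ratio of all compared positions the ratio was 0.796, and it stayed below 1 under each of the 3 other scalings.

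Ratios were compared at the 127 positions where the libraries together had 100 reads or more. These carried 98.8% of what the stretch held after poly I:C and 99.1% after mock transfection. The median log2 ratio was -0.60 at these positions, against -0.31 at all 2750 compared positions of 18S and 28S rRNA. The ratio lay below 1 at 102 of the 127 positions (80.3%), against 67.4% of all compared positions. With the median scaling, which removes the general shift, 93 of the 127 (73.2%) stayed below 1, against 50% of all compared positions, which that scaling fixes. The counting interval lay wholly below 1 at 87 positions (68.5%), against 50.7% of all compared positions. It lay wholly above 1 at 14 positions (11.02%), against 20.3% of all compared positions.

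By a rule of size, a position was called higher at a ratio of at least 2 and lower at a ratio of at most 0.5. In the stretch 6 of 127 compared positions (4.72%) were higher, against a background of 8.18% of all compared positions. Lower positions came to 20 of 127 (15.7%), against a background of 10.1%. At least 10-fold higher were 2 positions, against a background of 2.84%, and at least 10-fold lower were 0, against a background of 0%. The higher positions were 23.1% of the calls under the main scaling, against 58.8% under the median scaling, 55.6% with scaling to 28S reads and 15.2% with scaling to reads outside the stretch. All compared positions gave 225 higher and 277 lower calls under the main scaling. The median scaling gave 316 and 90 there, scaling to 28S reads 283 and 138, and scaling to reads outside the stretch 203 and 351. In the stretch, the median scaling gave 10 higher and 7 lower of 127 positions, against backgrounds of 11.5% and 3.27%. Scaling to 28S reads gave 10 higher and 8 lower of 127, against backgrounds of 10.3% and 5.02%. Scaling to reads outside the stretch gave 5 higher and 28 lower of 127, against backgrounds of 7.38% and 12.8%. The split into higher and lower calls therefore moved with the scaling, in the stretch and over all compared positions alike. Under each scaling the higher share of the stretch was below its background and the lower share above it, by little for lower positions with scaling to 28S reads.

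**Figure D1:**
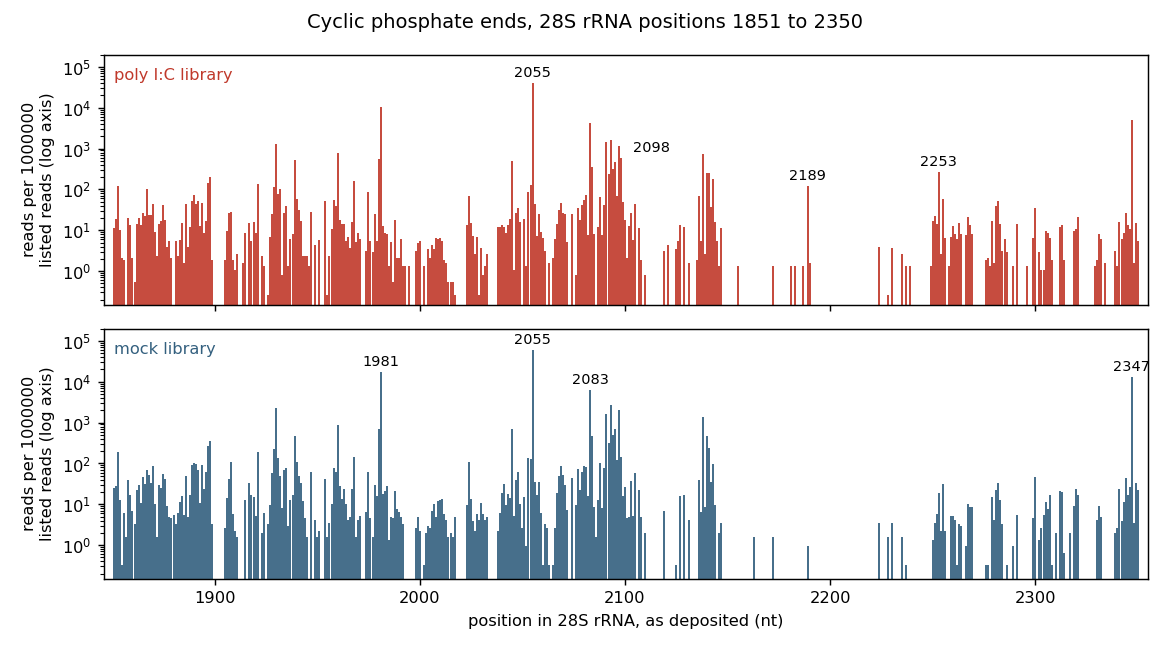
Reads per 1000000 listed reads (log axis) at each listed position of the stretch, in the poly I:C library (top) and the mock library (bottom); positions with 0 reads in a library are not drawn, and labels mark positions described in the text. Position 2055 is the highest line in both panels, and position 2189 stands out in the poly I:C panel, with 450 reads against 3 mock reads.

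The most frequent ends of the stretch lay at the same places in both libraries. The 10 positions with the most poly I:C reads were the same 10 as in the mock library. Together they took up 87.2% of the stretch's reads after poly I:C, against 90.0% after mock transfection. Over the 328 listed positions, Pearson's r between the libraries was 0.909 on the scale of log2 reads per 1000000 with 1 added, and Spearman's rho was 0.862. Both describe positions that share 1 pair of libraries.

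Position 2055 alone had 152310 poly I:C reads and 181910 mock reads. That was 52.7% (52.5 to 52.9) of the stretch's reads after poly I:C, against 49.4% (49.3 to 49.6) after mock transfection. It ranked 4 among 28S positions after poly I:C and 3 after mock transfection. Its ratio was 0.685 (0.680 to 0.690). The ends there were sharp in both conditions. Position 2054 had 490 poly I:C reads and 400 mock reads, or 0.322% and 0.220% of the reads at 2055. Position 2056 had 165 and 110, or 0.108% and 0.0605%.

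Position 1981, the next most frequent, had 38896 poly I:C reads and 54625 mock reads, a ratio of 0.583 (0.575 to 0.590). Position 2347, near the downstream limit, had 18786 poly I:C reads and 41075 mock reads. Its ratio of 0.374 (0.368 to 0.381) was the lowest among the 8 positions of the stretch with at least 10000 reads over both libraries, and the ratios of these 8 ran up to 0.888. Relative to position 2055, which needs no library scaling, position 2347 had 12.3% as many reads in the poly I:C library and 22.6% as many in the mock library. The same comparison gave 25.5% and 30.0% for position 1981, and 10.2% and 10.9% for position 2083.

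Of the remaining frequent positions, 2083 had 15506 poly I:C reads and 19846 mock reads, a ratio of 0.639 (0.626 to 0.653). Position 1930 had 4856 poly I:C reads and 6890 mock reads, a ratio of 0.577 (0.556 to 0.598). Position 2138 had 2758 poly I:C reads and 4305 mock reads, a ratio of 0.524 (0.499 to 0.550). All 10 frequent positions had ratios below 1 under the main scaling. At position 1960, with 2989 poly I:C reads and 2729 mock reads, the ratio of 0.896 turned to 1.11 under the median scaling. At position 2091 a ratio of 0.888 turned to 1.10 in the same way.

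**Figure D2:**
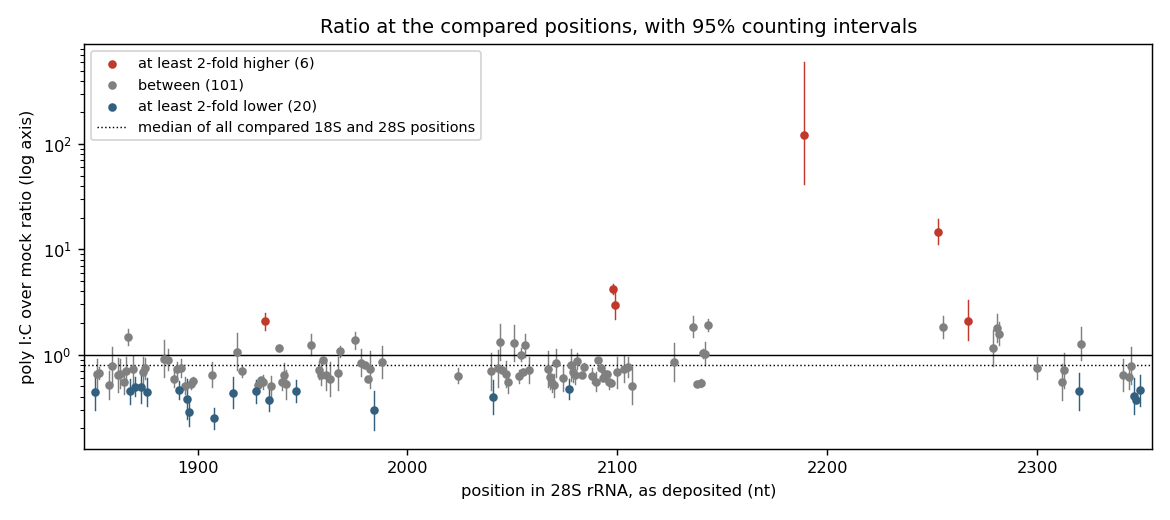
Ratio of poly I:C over mock (log axis) with its 95% counting interval at the 127 compared positions, coloured by the rule of size; the dotted line is the median of all compared 18S and 28S positions. Most points lie below 1, and the points at 2189 (a ratio of 123) and 2253 (a ratio of 14.7) stand above the rest.

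From position 2091 to 2097 the reads alternated between neighbouring positions in both libraries, a pattern described after the values were seen. Each of the 4 odd positions had more reads than the even positions beside it. Position 2093 had 6131 poly I:C reads and 8426 mock reads, and position 2097 had 4272 and 6427. Next to it, position 2096 had 260 poly I:C reads and 383 mock reads. The 4 odd positions together had 17651 poly I:C reads and 22087 mock reads, a ratio of 0.654 (0.641 to 0.667). The 3 even positions had 2368 poly I:C reads and 2886 mock reads, a ratio of 0.671 (0.635 to 0.709), and the intervals of the odd and the even positions overlapped.

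Position 2098, directly after this ladder, differed from it. It had 2218 poly I:C reads and 433 mock reads, a ratio of 4.19 (3.78 to 4.66), and position 2099 had 182 poly I:C reads and 50 mock reads, a ratio of 2.98 (2.17 to 4.16). The ratio at 2098 ranked 81 among the 1660 compared 28S positions. Position 2097, 1 nt upstream, had a ratio of 0.544 (0.523 to 0.565). Reads at 2098 came to 51.9% of those at 2097 after poly I:C, against 6.74% after mock transfection, a 7.71-fold difference that needs no scaling between libraries. The other listed positions of the window from 2076 to 2100 together had a ratio of 0.654 (0.646 to 0.663). Position 2100 returned to 69 poly I:C reads and 83 mock reads.

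Downstream of this ladder the listed ends became sparse. Of the 100 positions from 2151 to 2250 only 16 were listed, against 312 of the other 400 positions of the stretch. The longest run with no listed position was 33 nt, from 2191 to 2223. The 16 listed positions from 2151 to 2250 together had 601 poly I:C reads and 50 mock reads, a ratio of 9.83 (7.36 to 13.4). The 84 unlisted positions had under 5 reads each in both libraries and are not in these sums. Before them, the 75 listed positions from 2051 to 2150 had a ratio of 0.686 (0.682 to 0.690).

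Most of the listed poly I:C reads in this sparse part sat at 1 position. Position 2189 had 450 poly I:C reads and 3 mock reads, a ratio of 123 (41.7 to 597) that ranked 16 among the 1660 compared 28S positions. It was listed, and reached the minimum of 100 reads, through the poly I:C library alone, the library in which it is high. In the authors' deposited table its unscaled fold is 129. Position 2190 had 6 poly I:C reads and 0 mock reads, and position 2188 was not listed, so nearly all reads at this place fell on 1 position. Of the reads listed between 2151 and 2250, position 2189 made up 74.9% (71.2 to 78.3) after poly I:C, against 6.0% (1.25 to 16.5) after mock transfection. The remaining 15 listed positions had 151 poly I:C reads and 47 mock reads, but their ratio is set in part by which library got them listed. Of the 15, 9 reached the 5 reads needed for listing after poly I:C alone, with 106 poly I:C reads and 5 mock reads, of which position 2250 gave 65 and 4. The 4 positions that reached 5 reads in both libraries had 44 poly I:C reads and 32 mock reads, and the 2 that reached them after mock transfection alone had 1 and 10. The size of the ratio at 2189 rests on 3 mock reads. Its lower limit of 41.7 covers counting error only, not the choice of the position through its poly I:C reads.

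**Figure D3:**
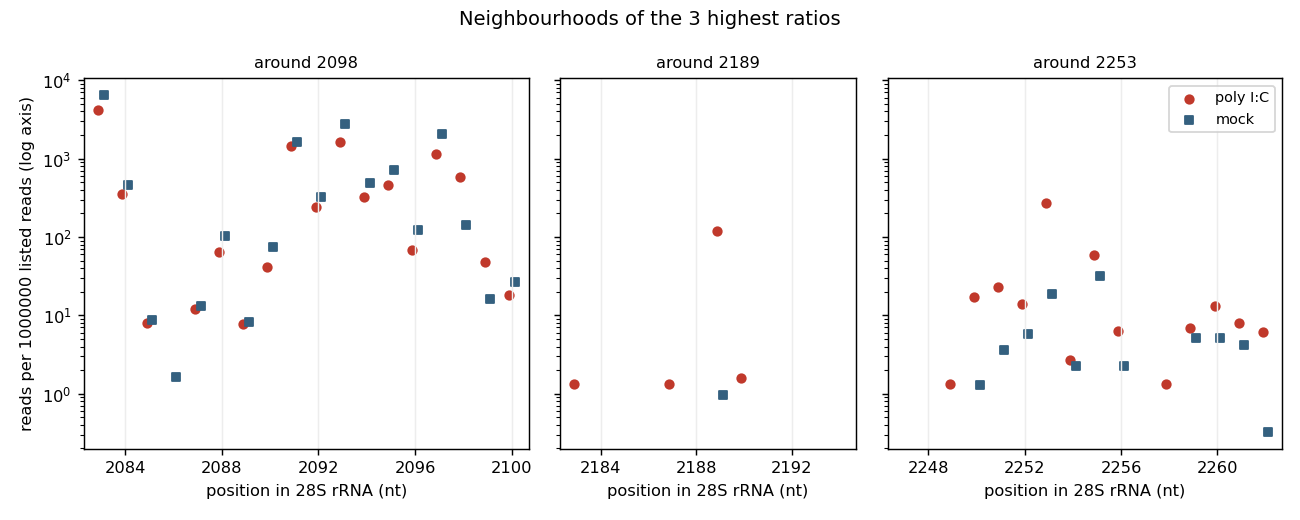
Reads per 1000000 listed reads (log axis) by position around the 3 highest ratios of the stretch, with poly I:C circles and mock squares; a missing symbol is a position with 0 reads or an unlisted one. Positions 2098, 2189 and 2253 have more poly I:C than mock reads, while 2097 beside 2098 has fewer.

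The second highest ratio among the compared positions of the stretch was at 2253. This position had 1024 poly I:C reads and 57 mock reads, a ratio of 14.7 (11.3 to 19.5), and an unscaled fold of 17.8 in the authors' deposited table. Its ratio ranked 56 among the 1660 compared 28S positions. With 57 mock reads, it reached the minimum of 100 reads only through the poly I:C library. Its neighbours were low in both libraries: position 2252 had 53 poly I:C reads and 18 mock reads, and position 2254 had 10 and 7. In the window from 2251 to 2275 it made up 56.0% (53.7 to 58.3) of reads after poly I:C, against 16.2% (12.5 to 20.5) after mock transfection.

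The rest of that window was also above 1. Without 2253 its listed positions had 804 poly I:C reads and 294 mock reads, a ratio of 2.24 (1.95 to 2.57). This ratio is set in small part by listing. Of these 16 positions, 3 were listed through the poly I:C library alone, with 57 poly I:C reads and 4 mock reads. Through the mock library alone 0 were listed. The 13 positions that reached the listing minimum in both libraries had 747 poly I:C reads and 290 mock reads. Position 2255 had 220 poly I:C reads and 99 mock reads, a ratio of 1.82 (1.43 to 2.33), and position 2267 had 80 and 31, a ratio of 2.11 (1.38 to 3.31). The next window, from 2276 to 2300, stood at 1.35 (1.20 to 1.52), with position 2281 at 148 poly I:C reads and 68 mock reads. The last window, from 2326 on, stood at 0.378 (0.371 to 0.384). Position 2347 made up 97.5% of its reads after poly I:C, against 98.5% after mock transfection.

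The remaining positions among the 10 highest ratios were 1932, 2136 and 2143. Position 1932 had 379 poly I:C reads and 150 mock reads, a ratio of 2.07 (1.71 to 2.51), although position 1930, only 2 nt upstream, had a ratio of 0.577. Position 2143 had 694 poly I:C reads and 296 mock reads, a ratio of 1.92 (1.67 to 2.21). Position 2136 had 267 poly I:C reads and 118 mock reads, a ratio of 1.85 (1.48 to 2.32), with position 2138 at 0.524. As at 2097 and 2098, positions with ratios on either side of 1 lay within a few nucleotides of each other. The 6 called positions formed 5 clusters when calls at most 5 nt apart were joined, and only 2098 and 2099 shared a cluster.

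**Figure D4:**
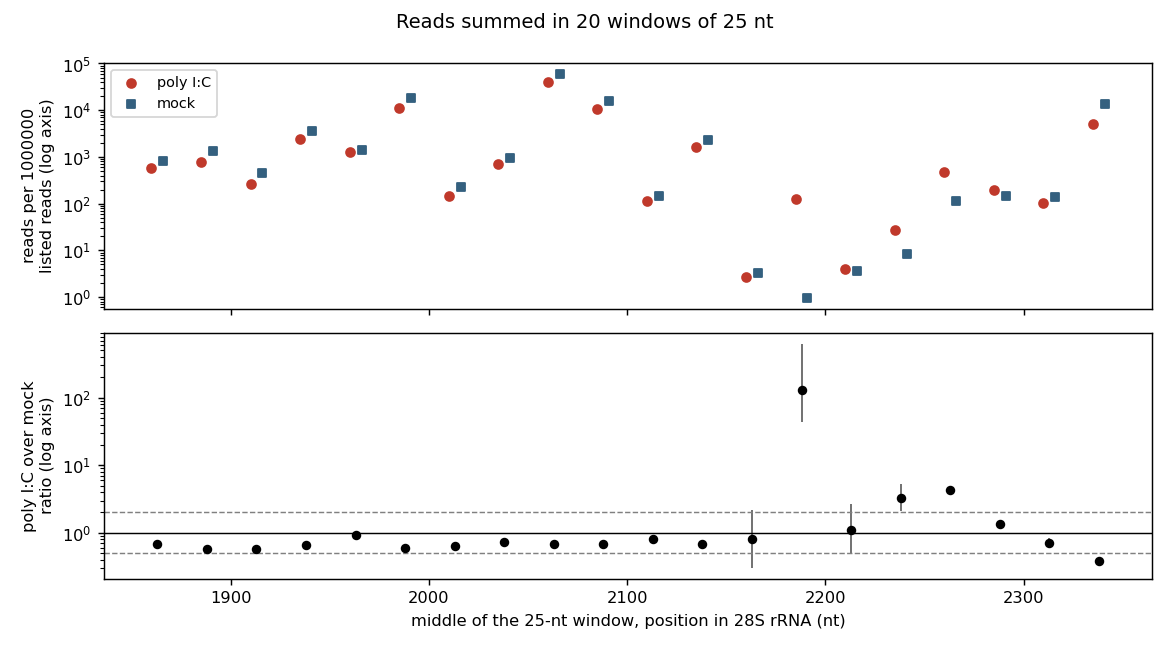
Reads per 1000000 listed reads (top, log axis) and ratio with its 95% counting interval (bottom, log axis) in 20 consecutive windows of 25 nt, with poly I:C circles and mock squares; dashed lines mark ratios of 2 and 0.5. The 12 windows up to position 2150 lie between 0.570 and 0.919, and the 3 windows above 2 lie between positions 2176 and 2275.

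Of the 20 windows, each 25 nt long, 3 had ratios of 2 or more, against a background of 27% of the 28S windows on the same grid, and 1 had a ratio of 0.5 or less, against a background of 2.94%. The windows up to position 2150 ran from 0.570 to 0.919. The higher windows were 2176 to 2200 at 128 (43.7 to 625), 2226 to 2250 at 3.30 (2.13 to 5.29) and 2251 to 2275 at 4.26 (3.80 to 4.79). The first of these had 471 poly I:C reads and 3 mock reads at its 5 listed positions, so it repeats the value of position 2189. The window from 2226 to 2250 had 105 poly I:C reads and 26 mock reads, of which position 2250, named after its values were seen, gave 65 and 4. Of the other 6 listed positions in that window, 3 were listed through the poly I:C library alone, with 15 poly I:C reads and 1 mock read.

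Under the main scaling, lower positions lay mainly in the upstream part of the stretch and at its downstream end. Of the 20 positions at or under 0.5, 13 lay at or before position 1950, where 45 positions were compared, and 4 lay after position 2250, where 17 were compared. The 18 compared positions between 2101 and 2300 held 0. The downstream 4 were position 2320, with 41 poly I:C reads and 74 mock reads, and the cluster of 3 from 2346 to 2349, which holds position 2347. Under the median scaling 4 of the 45 and 1 of the 17 were at least 2-fold lower. From 1951 to 2050 this held for 2 of 23, a share close to that upstream, and from 2051 to 2150 for 0 of 41. The lowest ratio was at position 1908, with 104 poly I:C reads and 340 mock reads, a ratio of 0.250 (0.199 to 0.313). Position 1896 had 65 poly I:C reads and 186 mock reads, a ratio of 0.286 (0.212 to 0.381), and position 1895 beside it had 33 and 71, a ratio of 0.380 (0.244 to 0.582). Position 1984, 3 nt from the frequent position 1981, had 31 poly I:C reads and 85 mock reads, a ratio of 0.298 (0.191 to 0.455). Position 1934 had 100 poly I:C reads and 218 mock reads, a ratio of 0.375 (0.293 to 0.478). The lower positions had a median of 145 mock reads, and only position 2347 among them was a frequent end.

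Set against the rest of 28S rRNA in segments of 500 nt, the stretch had the lowest ratio of 11 segments, of which 9 were complete. Nearest to its 0.642 were segment 2851 to 3350 at 0.688 (0.685 to 0.690) and segment 1 to 350 at 0.693 (0.688 to 0.699). The rest of 28S rRNA together had a ratio of 0.898 (0.896 to 0.899). The segment before it, from 1351 to 1850, stood at 0.701 (0.696 to 0.705), with 63 of 281 compared positions at least 2-fold lower. The segment after it, from 2351 to 2850, stood at 0.879 (0.875 to 0.884), with 31 of 231 lower. By the share of lower positions the stretch ranked 3 from the highest, at 15.7%, after 22.4% in segment 1351 to 1850 and 17.4% in segment 3851 to 4350. The median log2 ratios were -0.60 in the stretch, -0.59 in the segment before it and -0.49 in the segment after it. The order rests on the positions with the highest ratios in other segments. Without positions at or over 10-fold, the stretch stood at 0.639 and ranked 3 from the lowest, after segment 1351 to 1850 at 0.587 and segment 2851 to 3350 at 0.633. Without the most frequent position of each segment it ranked 1 from the lowest, at 0.600.

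**Figure D5:**
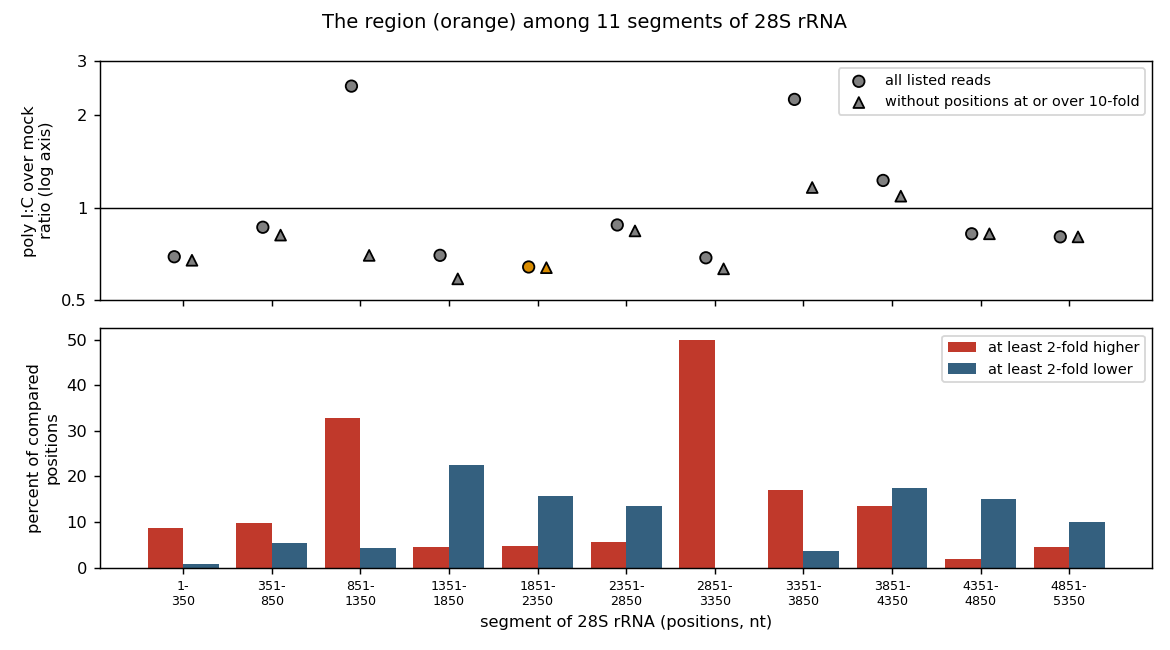
Ratio of poly I:C over mock (top, log axis) in 11 segments of 28S rRNA with all listed reads (circles, whose 95% counting intervals are narrower than the symbols) and without positions at or over 10-fold (triangles), and the percent of compared positions at least 2-fold higher or lower (bottom). The stretch described here, in orange, has the lowest circle at 0.642, with 4.72% of positions higher and 15.7% lower.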

How the data were processed

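Members are the listed 28S positions from 1851 to 2350. Per the file headers, the authors deposited reads by rRNA position and library. The headers do not mention scaling or pooling, and the deposited values are whole numbers. The build hg19 appears in the submitters' processing notes, while aligner, counting method and rRNA reference are not given. The authors' deposited fold is an unscaled ratio with 0.5 added to the reads on each side, and recomputing it from the counts left a largest relative deviation of 0. Their deposited score went unused. Position numbers are as deposited: the headers do not say which nucleotide of a fragment they mark, or how reads from rRNA repeats were assigned.

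Ratios, exact (Clopper-Pearson) intervals and medians were computed with Python 3.11.15, numpy 2.4.6, pandas 2.3.3 and scipy 1.17.1, and figures with matplotlib 3.10.9. For ranking, 0 reads in a library were set to 3. The calculation was tested on simulated counts. Named positions are, of those compared, the 10 most frequent in either library, the 10 highest and the 6 lowest ratios, and the neighbours of the 3 highest and of the most frequent one. Others were named after their values were seen. Members and lists were chosen with earlier results of these data known. Alternatives covered scalings, read minimums, thresholds, limits, windows and joins.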

Additional observations from a re-analysis of the deposited data

How the results depend on the processing

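The ratio of the whole stretch, 0.642 as reported, was 0.749 with scaling to 28S reads, 0.796 with the median scaling, 0.612 with scaling to reads outside the stretch, 0.600 without position 2055 and 0.676 with limits 10 nt further in, and stayed below 1 throughout. Its share in the poly I:C and mock libraries was 11.7% and 15.6% of 28S reads, 8.31% and 13.6% as a ratio to reads outside it, 3.63% and 6.04% without position 2055, and 7.14% and 10.6% with the narrower limits. The ratio at position 2055 became 0.799, 0.849 and 0.653 under the 3 scalings. The median log2 ratio became -0.38, -0.29 and -0.67 under these, -0.47 at a minimum of 20 reads and -0.45 with no minimum. Of 127 positions, higher and lower ones numbered 10 and 8 with scaling to 28S reads, 10 and 7 with the median scaling, and 5 and 28 with scaling to reads outside the stretch. They numbered 28 and 57 of 250 at 20 reads (backgrounds 12.2% and 12.6%) and 2 and 1 of 27 at 1000 reads (12.1% and 7.6%). With no minimum they numbered 41 and 87 of 328 (15.2% and 14.3%), and at 4-fold 3 and 0 of 127 (4.04% and 0.145%). Summing neighbours gave 17 higher and 28 lower of 242 positions (backgrounds 8.34% and 7.49%). Intervals wholly beyond 2-fold left 4 higher and 5 lower of 127 positions (backgrounds 5.82% and 3.27%). Positions at least 10-fold higher were 5 of 250 at 20 reads (background 2.94%), 1 of 27 at 1000 reads (6.12%), 6 of 328 with no minimum (2.67%) and 4 of 242 with neighbours summed (2.94%). Those at least 10-fold lower were 2 at 20 reads (0.241%) and 5 with no minimum (0.376%). Shifting the windows by 12 nt left 0 lower windows. Without position 2055, the first and the 5 most frequent positions held 28.5% and 62.1% of the poly I:C reads and 29.4% and 70.3% of the mock reads. Without positions at or over 10-fold, a check chosen after seeing the data, the stretch ranked 3 among the segments. Scalings multiply all ratios by 1 factor, and minimums change which positions count. Where neither accounts for a shift, the cause was not tested. At the 29 other named positions, 55 of 87 rescaled ratios stayed inside the counting interval, and the direction turned at 3, namely 1960, 2054 and 2091. No paired analysis was possible because there is 1 library per condition, which also leaves no replicate to drop. Depth limits position 2189, where 3 mock reads leave an interval from 41.7 to 597.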

Other observations

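Some positions below the minimum of 100 reads also had ratios of at least 10, and they were chosen after their values were seen. Each had under 5 mock reads and so was listed through the poly I:C library alone, the library in which it is high. With no minimum, 6 of 328 listed positions of the stretch were at least 10-fold higher, against 2.67% of all listed positions. Position 2250 had 65 poly I:C reads and 4 mock reads, a ratio of 13.3 (4.95 to 50.2), and lies 3 nt upstream of position 2253. Position 2060 had 24 poly I:C reads and 1 mock read, a ratio of 19.6 (3.20 to 807), and lies 5 nt downstream of the most frequent position 2055. Position 2262 had 23 poly I:C reads and 1 mock read, a ratio of 18.8 (3.06 to 775). Position 2125 had 13 poly I:C reads and 1 mock read, a ratio of 10.6 (1.60 to 452).

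Positions with reads in 1 library alone were few and low. Of the 328 listed positions, 21 (6.40%) had reads after poly I:C alone, at most 23 reads each, against 8.26% of all 5047 listed positions. Another 10 (3.05%) had reads after mock transfection alone, at most 17 reads each, against 1.62% of all listed positions. Both counts depend on the listing minimum of 5 reads. The poly I:C library had 1.22 times as many reads over all listed positions, but in the stretch its unscaled ratio of reads to mock was 0.785. Whether the depth of the libraries shaped these counts was not tested. Of the 21, 17 lay at or after position 2101, where 109 positions were listed, and of the 10, 7 lay before it, where 219 were listed. Position 2285 had 23 poly I:C reads and 0 mock reads, which is 6.27-fold when the mock side is set to 3 reads, and the counting interval began at 4.70. On the other side, position 2076 had 3 poly I:C reads and 30 mock reads, a ratio of 0.0818 (0.0160 to 0.263), and position 1933 had 3 and 25, a ratio of 0.0982 (0.0190 to 0.322), next to position 1932 at 2.07. Positions 2076 and 1933 were listed through the mock library alone. With no minimum, 5 of 328 listed positions of the stretch were at least 10-fold lower, against 0.376% of all listed positions.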
